A study of Mus musculus with 12 samples.

Results

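The genes described are the cytochrome P450 families 2, 3 and 4 of mouse liver. Members were the probe sets annotated with exactly 1 gene whose symbol starts with Cyp2, Cyp3 or Cyp4, a subfamily letter and a number, and each gene was read from its probe set of highest mean signal over all arrays. The rule gave 53 genes of 18193 with such a probe set. They fall into 17 subfamilies and comprise 35 genes of family 2, 5 of family 3 and 13 of family 4. Total RNA was measured on 12 single-colour Affymetrix arrays, 3 for each of 4 groups of male mice. Nrf2 null mice, also labelled Nrf2 knockout, received by gavage either CDDO-Im, a synthetic triterpenoid known as an activator of the transcription factor Nrf2, at the labelled dose of 30 uM/kg for 6 hours, or vehicle. Wild type mice received the same 2 treatments. The labels give no strain, age or animal identifiers and leave it unsaid whether replicates were separate mice. The p-values therefore refer to the spread among the arrays, which may be technical. Each vehicle title has a bracketed 2 and no CDDO-Im title does, so that an effect of what the mark stands for and an effect of the compound cannot be told apart.

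Cytochrome P450 enzymes are heme proteins of the endoplasmic reticulum that insert an oxygen atom into their substrates with electrons passed on by NADPH-cytochrome P450 reductase and cytochrome b5. Families 2 and 3 oxidise drugs, other foreign compounds and steroids in the liver, and several Cyp2c and Cyp2j enzymes form epoxides of arachidonic acid. Family 4 enzymes mainly hydroxylate fatty acids and eicosanoids at the end of the chain. Nuclear receptors such as CAR (Nr1i3), PXR (Nr1i2) and PPARα (Ppara) are the best known regulators of these genes, whereas Nrf2 (Nfe2l2) is known chiefly for the antioxidant response.

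The genes lie in clusters: all 11 Cyp2c members are on chromosome 19, all 8 Cyp2d members on chromosome 15, all 5 Cyp3a members on chromosome 5 and 6 of the 7 Cyp4f members on chromosome 17. RefSeq promoter sequences (build GRCm38.p6) were matched by Entrez gene ID for 40 of the 53 genes, with 46 promoters, and searched over the 250 bases before each start. The 150 bases before the start are shown for the members whose changes the results turn on, to let related promoters be read beside each other. The first 4 belong to Cyp2c genes that rose after CDDO-Im and the fifth to Cyp2c70, which differed in the other direction. Their positions are chr19:39286935-39287084 (plus strand) for Cyp2c29, chr19:39463076-39463225 (minus) for Cyp2c38, chr19:40089529-40089678 (plus) for Cyp2c50, chr19:39741102-39741251 (minus) for Cyp2c68 and chr19:40187287-40187436 (minus) for Cyp2c70. Cyp3a13 at chr5:137921620-137921769 (minus) was the member that fell in both genotypes, and Cyp4f14 at chr17:32917088-32917237 (minus; 1 of 4 listed starts) was the family 4 member that rose most. Sequences run 5′ to 3′, and capitals mark a match on either strand to TATAAA (the TATA box), CAAAGTCCA (a form of the HNF4A site), TTGCNNAA (the C/EBP core) or TGACNNNGC (the core of the antioxidant response element that Nrf2 binds).
Cyp2c29: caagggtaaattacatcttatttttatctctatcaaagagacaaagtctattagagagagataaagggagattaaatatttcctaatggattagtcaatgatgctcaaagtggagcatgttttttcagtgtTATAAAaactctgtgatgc
Cyp2c38: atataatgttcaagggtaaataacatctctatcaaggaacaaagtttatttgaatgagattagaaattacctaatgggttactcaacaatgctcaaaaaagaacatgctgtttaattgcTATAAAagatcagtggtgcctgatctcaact
Cyp2c50: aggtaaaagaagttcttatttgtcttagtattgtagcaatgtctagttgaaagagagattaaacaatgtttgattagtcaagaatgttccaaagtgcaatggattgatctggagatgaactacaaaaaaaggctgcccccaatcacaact
Cyp2c68: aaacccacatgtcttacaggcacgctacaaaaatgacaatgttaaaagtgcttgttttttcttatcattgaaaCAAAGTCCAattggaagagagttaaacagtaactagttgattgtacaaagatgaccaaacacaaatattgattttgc
Cyp2c70: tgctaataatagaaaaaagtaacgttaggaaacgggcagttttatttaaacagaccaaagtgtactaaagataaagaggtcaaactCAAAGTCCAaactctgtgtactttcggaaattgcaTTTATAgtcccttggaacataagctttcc
Cyp3a13: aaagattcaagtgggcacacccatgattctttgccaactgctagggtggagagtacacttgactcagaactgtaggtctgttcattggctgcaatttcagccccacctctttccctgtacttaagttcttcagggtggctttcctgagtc
Cyp4f14: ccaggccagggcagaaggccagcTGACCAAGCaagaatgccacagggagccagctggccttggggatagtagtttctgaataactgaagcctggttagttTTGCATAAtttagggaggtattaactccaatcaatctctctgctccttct

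The Cyp2c promoters were related to each other to different degrees. Over the 250 bases, Cyp2c29 was identical to Cyp2c39 in 74.1% of aligned columns, to Cyp2c38 in 68.8%, to Cyp2c50 in 55.9% and to Cyp2c70 in 47.1%. Cyp2c50 and Cyp2c37 shared 84.3%. The letters TATAAA occurred in 15 of the 46 member promoters (32.6%), against 12.4% of all 32851 promoters in the table. CAAAGTCCA occurred in 5 (10.9%; Cyp2c65, Cyp2c68, Cyp2c70, Cyp3a11 and Cyp3a16), against 0.384% of all promoters. TTGCNNAA was found in 12 promoters of 8 genes (26.1%), against 9.56%, and 4 of those promoters are the listed starts of Cyp4f14. TGACNNNGC was found in 2 (4.35%), one of Cyp4f18 and 1 of the 4 listed starts of Cyp4f14, the one shown, against 10.2%. No match of one motif overlapped a match of another in the sequences shown. Related genes share promoter sequence, so these counts are not independent, and a match describes letters only. Cyp2c54, Cyp2c23, Cyp2d22 and Cyp2d13 had no entry.

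All values are deposited log2 signals, which compare a gene between arrays but not one gene with another. The array medians lay between 5.77 and 5.83. Nfe2l2, which encodes Nrf2, averaged 4.89 ± 0.10 in Nrf2 null CDDO-Im, 4.71 ± 0.24 in Nrf2 null vehicle, 8.73 ± 0.39 in wild type CDDO-Im and 8.60 ± 0.09 in wild type vehicle livers (SD, n = 3 each). Wild type vehicle replicate 3 stood apart from the other 2 wild type vehicle arrays: 36 of 53 members lay above both, 9 below both and 8 between, with a median shift of 0.24. The shift exceeded 1 in either direction for 13 members on this array, against 0 to 6 members on each of the other 11 arrays set against their own group. It reached 3.10 for Cyp2c54. Pancreatic acinar markers were also high there: 11 of 15 listed markers were measured, and all 11 lay above the 10 remaining arrays both on this array and on Nrf2 null vehicle replicate 2. Their summed signal was 14.10 and 12.51 on those 2 arrays, against 9.95 to 10.53 on the remaining 10 (log2). On Nrf2 null vehicle replicate 2 the P450 genes were not shifted alike, with 14 members above, 10 below and 29 between the other 2 arrays of that group and a median shift of 0.02. The part of acinar transcripts in the results was not tested, and the counts of members called are given with and without wild type vehicle replicate 3. That array was set apart partly by the members' own values. Results of the fit without it therefore show how far a result depends on that array, and their p-values are no separate test. In whole liver, fewer cells of a type and less RNA per cell cannot be told apart.

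**Figure D1:**
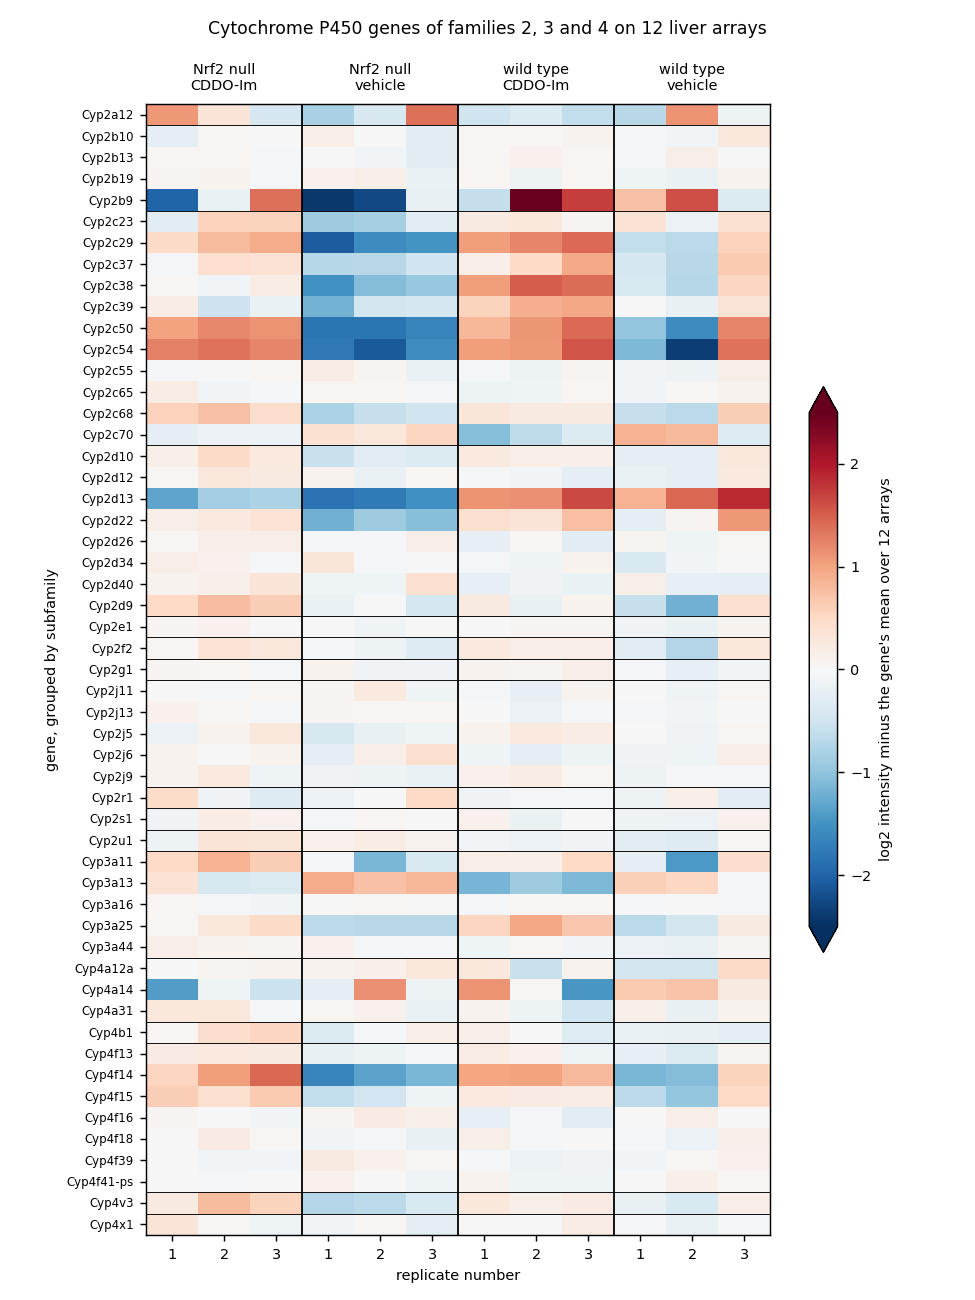
Signal of the 53 P450 genes (rows, grouped by subfamily) on the 12 arrays (columns, grouped by genotype and treatment), as log2 signal minus the gene's mean over the 12 arrays, on a colour scale limited to ±2.5. The Cyp2c rows hold several genes with higher values in both CDDO-Im groups, and the column of wild type vehicle replicate 3 differs from the other 2 wild type vehicle columns, with Cyp2c54 shifted by 3.10.

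In Nrf2 null livers CDDO-Im raised 11 of the 53 P450 genes and lowered 1. The risen genes were 6 of the 11 Cyp2c members, Cyp2d10, Cyp2d22, Cyp3a25, Cyp4f14 and Cyp4v3, and the lowered gene was Cyp3a13. The background of calls over all 18193 genes was 3.58% higher and 2.32% lower, against 20.8% and 1.89% of the members. The median difference of the members was 0.17, against -0.0050 over all genes, and 38 members had a positive and 15 a negative difference. The 3 CDDO-Im arrays lay wholly above the 3 vehicle arrays for 20 members and wholly below for 3, against 11.6% and 11.4% of all genes. The 12 calls are at a Benjamini-Hochberg adjusted p below 0.05 over all genes in limma. The number of member calls varied with single arrays: it was 2 without Nrf2 null CDDO-Im replicate 3, 4 without Nrf2 null CDDO-Im replicate 2 or without Nrf2 null vehicle replicate 1, 6 without Nrf2 null vehicle replicate 2 and 19 without wild type vehicle replicate 3, which enters this comparison only through the shared estimate of spread. In that last fit 17 members were higher and 2 lower, the background being 4.95% and 3.93%, and all 12 calls were kept.

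In wild type livers CDDO-Im raised 3 members, Cyp2c29, Cyp2c38 and Cyp3a25, and lowered 1, Cyp3a13. The background of calls was 0.978% higher and 0.846% lower, against 5.66% and 1.89% of the members. The median difference of the members was 0.08, against 0.0058 over all genes. CDDO-Im arrays lay wholly above vehicle arrays for 9 members and wholly below for 4, against 8.42% and 8.18% of all genes. Without wild type vehicle replicate 3, 14 members were higher and 2 lower, the background being 2.77% and 4.84%, and all 4 calls were kept. The count was 1, Cyp3a13, without any single one of wild type CDDO-Im replicates 2 and 3 and wild type vehicle replicates 1 and 2. All 4 genes called in wild type livers were called in Nrf2 null livers in the same direction, and 8 genes were called in Nrf2 null livers alone with all arrays; the test of the difference between genotypes is given further on.

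**Figure D2:**
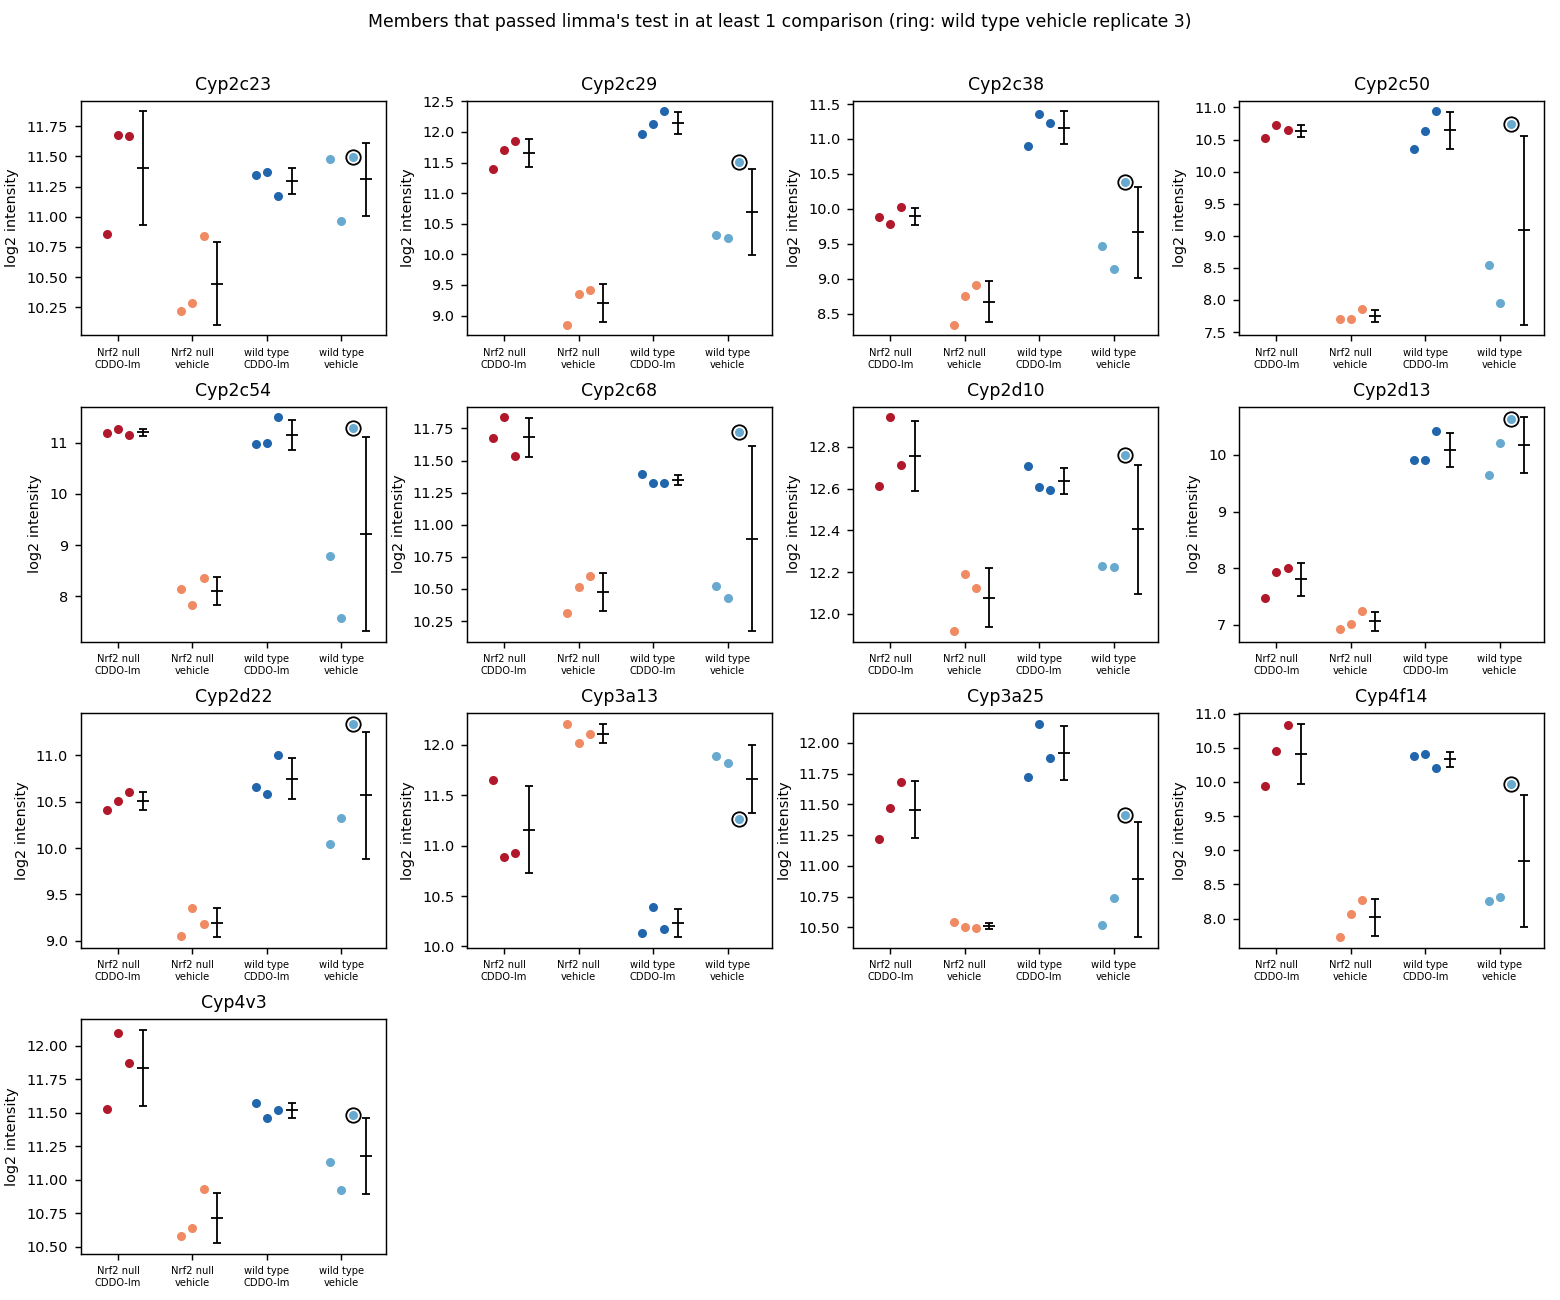
Log2 signal (vertical axis) of the 13 P450 genes called in at least 1 comparison, one panel per gene, with the 4 groups side by side. Dots are arrays, bars are the group mean ± SD (n = 3), and the ring marks wild type vehicle replicate 3, which for Cyp2c50 reads 10.74 beside 8.55 and 7.95.

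Cyp2c genes showed the largest rises. Cyp2c54, an enzyme that forms epoxides of linoleic and arachidonic acid, read 11.18, 11.28 and 11.15 in Nrf2 null CDDO-Im livers, against 8.14, 7.82 and 8.36 in Nrf2 null vehicle livers. The rise was 3.10 ± 0.65 (SE), or 8.56-fold (adjusted p = 0.0206). Wild type livers read 10.97, 11.00 and 11.50 with CDDO-Im, against 8.79, 7.57 and 11.28 with vehicle. The 3 CDDO-Im arrays were level with vehicle replicate 3 and far above the other 2. The wild type difference of 1.94 ± 0.65 did not pass the test (adjusted p = 0.181), and without wild type vehicle replicate 3 it was 2.97 (adjusted p = 5.179e-05). That array was set apart partly by this gene's own shift, so the smaller p-value is no separate support. The call in Nrf2 null livers was lost without any one of 4 arrays, namely CDDO-Im replicate 2 or 3 and vehicle replicate 1 or 2 of that genotype (adjusted p between 0.0703 and 0.07595), with the difference between 2.95 and 3.23 whichever of the 12 arrays was left out.

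Cyp2c50, which epoxidises the same fatty acids, had the same shape. It read 10.53, 10.73 and 10.65 in Nrf2 null CDDO-Im livers, against 7.71, 7.70 and 7.86 in Nrf2 null vehicle livers. The rise was 2.88 ± 0.51, or 7.36-fold (adjusted p = 0.0114), and it was lost only without Nrf2 null CDDO-Im replicate 3 (adjusted p = 0.0546). Wild type livers read 10.36, 10.63 and 10.94 with CDDO-Im, against 8.55, 7.95 and 10.74 with vehicle. Again 1 vehicle array lay within the CDDO-Im range. The wild type difference was 1.56 ± 0.51 (adjusted p = 0.164) and 2.39 without that array (adjusted p = 6.783e-06).

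Cyp2c29 and Cyp2c38, both arachidonic acid epoxygenases, rose in both genotypes. Cyp2c29 read 11.40, 11.71 and 11.86 in Nrf2 null CDDO-Im livers, against 8.85, 9.35 and 9.42 in Nrf2 null vehicle livers. The wild type values were 11.96, 12.14 and 12.34 with CDDO-Im, against 10.32, 10.26 and 11.50 with vehicle. The treatments did not overlap in either genotype. The rise was 5.45-fold in Nrf2 null livers (2.45 ± 0.28, adjusted p = 0.00405) and 2.74-fold in wild type livers (1.45 ± 0.28, adjusted p = 0.0248). The Nrf2 null call held whichever array was left out, whereas the wild type call was lost without any one of 5 wild type arrays, all but vehicle replicate 3, at adjusted p up to 0.137.

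Cyp2c38 read 9.88, 9.78 and 10.02 in Nrf2 null CDDO-Im livers, against 8.34, 8.76 and 8.91 in Nrf2 null vehicle livers. It read 10.90, 11.35 and 11.23 in wild type CDDO-Im livers, against 9.46, 9.14 and 10.39 in wild type vehicle livers. Each genotype's CDDO-Im arrays lay above its vehicle arrays, and the wild type CDDO-Im arrays were the highest of all. The rise was 1.23 ± 0.26 in Nrf2 null livers (adjusted p = 0.0211) and 1.50 ± 0.26 in wild type livers (adjusted p = 0.0138). In each genotype 4 arrays were needed for the call: in Nrf2 null livers CDDO-Im replicates 2 and 3 and vehicle replicates 1 and 2 (adjusted p up to 0.0916 without one of them), and in wild type livers the arrays with the same group and replicate names (up to 0.0841).

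Cyp2c68 and Cyp2c23 passed the test in Nrf2 null livers. Cyp2c68 read 11.67, 11.84 and 11.53 in Nrf2 null CDDO-Im livers, against 10.31, 10.52 and 10.60 in Nrf2 null vehicle livers, a rise of 1.21 ± 0.26 (adjusted p = 0.0214). The wild type values were 11.39, 11.33 and 11.32 with CDDO-Im, against 10.53, 10.43 and 11.72 with vehicle. Here vehicle replicate 3 lay above every CDDO-Im array of its genotype, and without it the wild type difference was 0.87 (adjusted p = 0.000328). Cyp2c23, an epoxygenase whose probe set carries the suffix for probes shared between transcripts, read 10.86, 11.68 and 11.67 in Nrf2 null CDDO-Im livers, against 10.22, 10.28 and 10.84 in Nrf2 null vehicle livers. Its groups were separated by little, and the rise of 0.95 ± 0.23 (adjusted p = 0.0344) was the least certain of the Cyp2c calls in Nrf2 null livers. For both genes the call was lost without CDDO-Im replicate 2 or 3 or vehicle replicate 1 or 2 of the Nrf2 null groups, at adjusted p up to 0.0876 for Cyp2c68 and 0.137 for Cyp2c23. Cyp2c23 in wild type livers read 11.35, 11.37 and 11.17 with CDDO-Im, against 11.48, 10.96 and 11.49 with vehicle, and those groups overlapped.

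The remaining Cyp2c genes passed no test of the compound with all arrays. Cyp2c39, a retinoic acid hydroxylase, read 11.46, 10.76 and 11.11 in Nrf2 null CDDO-Im livers, against 10.09, 10.82 and 10.84 in Nrf2 null vehicle livers. It read 11.83, 12.18 and 12.24 in wild type CDDO-Im livers, against 11.27, 11.09 and 11.60 in wild type vehicle livers. The treatments were separate in wild type livers (difference 0.76, adjusted p = 0.125) and overlapped in Nrf2 null livers. Cyp2c37 had low signals, with differences of 0.88 in Nrf2 null livers (adjusted p = 0.106) and 0.68 in wild type livers (adjusted p = 0.326). Cyp2c55 and Cyp2c65 had low signals throughout and differences between -0.08 and 0.01. Without wild type vehicle replicate 3, 7 Cyp2c genes were higher and 1 lower in each genotype. In both genotypes the higher ones then included Cyp2c29, Cyp2c37, Cyp2c38, Cyp2c50, Cyp2c54 and Cyp2c68.

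Cyp2c70, which hydroxylates bile acids to muricholic acids in mice, differed in the other direction. It read 11.73, 11.81 and 11.81 in Nrf2 null CDDO-Im livers, against 12.34, 12.24 and 12.49 in Nrf2 null vehicle livers. Its wild type values were 10.90, 11.31 and 11.62 with CDDO-Im, against 12.83, 12.76 and 11.64 with vehicle. The treatments did not overlap in either genotype, narrowly so in wild type livers, where vehicle replicate 3 was close to a CDDO-Im array. The differences of -0.57 ± 0.27 in Nrf2 null livers (adjusted p = 0.264) and -1.13 ± 0.27 in wild type livers (adjusted p = 0.0554) did not pass the test. Without wild type vehicle replicate 3 both did, at -0.57 (adjusted p = 0.0300) and -1.52 (adjusted p = 0.000123).

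In the Cyp3a subfamily 1 gene rose and 1 fell in both genotypes. Cyp3a13, a member of the drug and steroid hydroxylating subfamily, read 11.65, 10.88 and 10.93 in Nrf2 null CDDO-Im livers, against 12.21, 12.02 and 12.11 in Nrf2 null vehicle livers. In wild type livers it read 10.13, 10.39 and 10.17 with CDDO-Im, against 11.89, 11.82 and 11.27 with vehicle. Every CDDO-Im array lay below every vehicle array of its genotype. The fall was 1.94-fold in Nrf2 null livers (-0.96 ± 0.20, adjusted p = 0.0205) and 2.69-fold in wild type livers (-1.43 ± 0.20, adjusted p = 0.00395). The wild type call held whichever of the 12 arrays was left out, with differences between -1.62 and -1.31, while the Nrf2 null call was lost without CDDO-Im replicate 2 or 3 or vehicle replicate 1 or 2 of that genotype (adjusted p up to 0.0906).

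Cyp3a25 read 11.22, 11.47 and 11.68 in Nrf2 null CDDO-Im livers, against 10.54, 10.50 and 10.49 in Nrf2 null vehicle livers. It read 11.72, 12.16 and 11.87 in wild type CDDO-Im livers, against 10.52, 10.74 and 11.42 in wild type vehicle livers. Neither genotype showed overlap between treatments. The rise was 0.95 ± 0.20 in Nrf2 null livers (adjusted p = 0.0205) and 1.03 ± 0.20 in wild type livers (adjusted p = 0.0245). It was lost in each genotype without that genotype's CDDO-Im replicate 2 or 3 or vehicle replicate 1 or 2, at adjusted p up to 0.0909 in Nrf2 null and 0.123 in wild type livers. Cyp3a11, the principal drug-metabolising Cyp3a enzyme of mouse liver, read 13.01, 13.39 and 13.14 in Nrf2 null CDDO-Im livers, against 12.50, 11.38 and 12.14 in Nrf2 null vehicle livers. Wild type livers gave 12.69, 12.64 and 13.02 with CDDO-Im, against 12.29, 11.09 and 12.96 with vehicle. The vehicle arrays were the more scattered ones, and neither the difference of 1.18 ± 0.39 in Nrf2 null livers (adjusted p = 0.104) nor that of 0.67 in wild type livers (adjusted p = 0.523) passed the test. Without wild type vehicle replicate 3 the Nrf2 null difference passed it (adjusted p = 0.0319), and the wild type difference was 1.09 (adjusted p = 0.0812). Cyp3a16 and Cyp3a44 had low signals and differences of -0.02 to 0.09.

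In the Cyp2d subfamily 2 genes rose in Nrf2 null livers. Cyp2d22, often taken as the mouse counterpart of human CYP2D6, read 10.41, 10.50 and 10.60 in Nrf2 null CDDO-Im livers, against 9.05, 9.36 and 9.19 in Nrf2 null vehicle livers. The wild type values were 10.66, 10.58 and 11.00 with CDDO-Im, against 10.04, 10.33 and 11.34 with vehicle. The Nrf2 null groups were well apart, and the wild type groups overlapped through vehicle replicate 3. The rise in Nrf2 null livers was 1.31 ± 0.26 (2.48-fold, adjusted p = 0.0161), and a second probe set of the gene gave 1.33 (adjusted p = 0.0301 over all probe sets). The wild type difference was 0.18 with all arrays and 0.56 without vehicle replicate 3 (adjusted p = 0.0297).

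Cyp2d10 read 12.61, 12.94 and 12.71 in Nrf2 null CDDO-Im livers, against 11.92, 12.19 and 12.13 in Nrf2 null vehicle livers, a rise of 0.68 ± 0.14 (adjusted p = 0.0191). It read 12.71, 12.61 and 12.59 in wild type CDDO-Im livers, against 12.23, 12.22 and 12.76 in wild type vehicle livers, where vehicle replicate 3 was again the highest. The Nrf2 null calls of Cyp2d22 and Cyp2d10 were lost without CDDO-Im replicate 2 or 3 or vehicle replicate 1 of that genotype, at adjusted p up to 0.0700 and 0.0841. Cyp2d9, a male-biased testosterone 16α-hydroxylase, had differences of 0.83 in Nrf2 null livers (adjusted p = 0.140) and 0.50 in wild type livers (adjusted p = 0.543). It was called higher in both genotypes without wild type vehicle replicate 3, at 0.83 in Nrf2 null (adjusted p = 0.00846) and 0.93 in wild type livers (adjusted p = 0.00838). Cyp2d26, the brightest of the subfamily, read 12.81, 12.96 and 12.94 in Nrf2 null CDDO-Im livers, against 12.77, 12.76 and 12.96 in Nrf2 null vehicle livers. Its wild type values were 12.59, 12.82 and 12.50 with CDDO-Im, against 12.86, 12.69 and 12.82 with vehicle. The treatments overlapped in both genotypes, with differences of 0.07 in Nrf2 null (adjusted p = 0.765) and -0.15 in wild type livers (adjusted p = 0.570).

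In family 4, 2 genes rose in Nrf2 null livers. Cyp4f14, which hydroxylates leukotriene B4, read 9.95, 10.45 and 10.84 in Nrf2 null CDDO-Im livers, against 7.73, 8.06 and 8.27 in Nrf2 null vehicle livers. In wild type livers it read 10.38, 10.41 and 10.21 with CDDO-Im, against 8.26, 8.32 and 9.96 with vehicle. The treatments did not overlap in either genotype, although vehicle replicate 3 came close to the wild type CDDO-Im arrays. The rise was 2.39 ± 0.37 in Nrf2 null livers (5.24-fold, adjusted p = 0.00943) and was lost only without Nrf2 null CDDO-Im replicate 3 (adjusted p = 0.0509). The wild type difference of 1.48 ± 0.37 did not pass the test (adjusted p = 0.0737), and without vehicle replicate 3 it was 2.04 (adjusted p = 0.000103).

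Cyp4v3, a fatty acid hydroxylase whose human counterpart CYP4V2 is mutated in a crystalline eye disease, read 11.53, 12.10 and 11.88 in Nrf2 null CDDO-Im livers, against 10.58, 10.64 and 10.93 in Nrf2 null vehicle livers. The rise was 1.12 ± 0.16 (2.17-fold, adjusted p = 0.00666) and held whichever array was left out, with differences between 0.99 and 1.27. The probe set carries the suffix for probes shared between transcripts, and the call also held with the mean of the gene's 2 probe sets. Wild type livers read 11.57, 11.46 and 11.52 with CDDO-Im, against 11.14, 10.92 and 11.48 with vehicle, and these groups overlapped slightly. Cyp4f15 read 10.69, 10.47 and 10.73 in Nrf2 null CDDO-Im livers, against 9.46, 9.60 and 9.98 in Nrf2 null vehicle livers (difference 0.95 ± 0.28, adjusted p = 0.0725). Its wild type values were 10.31, 10.29 and 10.27 with CDDO-Im, against 9.43, 9.12 and 10.58 with vehicle. The treatments were separate in Nrf2 null livers but did not pass the test there, and without wild type vehicle replicate 3 the difference passed in both genotypes (wild type 1.02, adjusted p = 0.000964). The other 5 Cyp4f members were not called with all arrays.

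**Figure D3:**
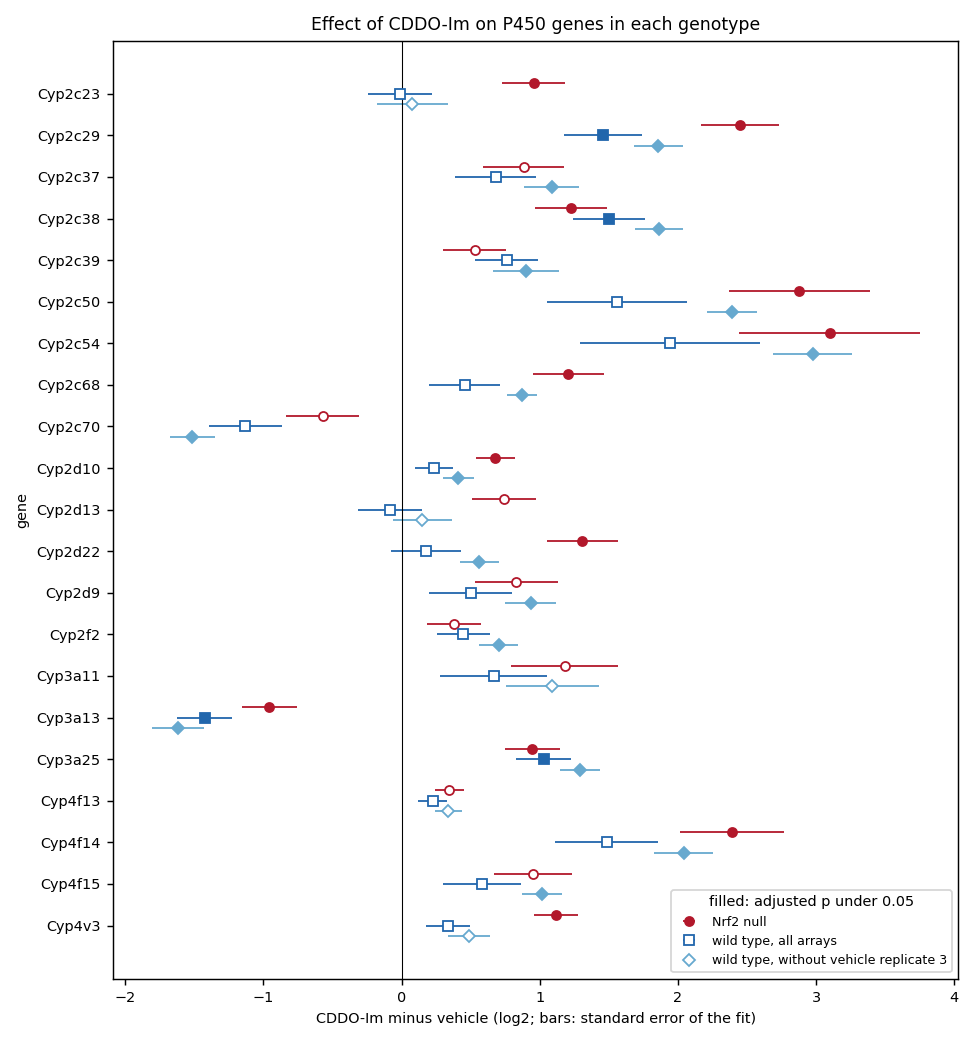
Difference between CDDO-Im and vehicle (log2, horizontal axis, bars ± SE) for the 21 P450 genes called for CDDO-Im against vehicle in at least 1 genotype, with or without wild type vehicle replicate 3. Red circles stand for Nrf2 null, blue squares for wild type with all arrays and light blue diamonds for wild type without that array, filled where the adjusted p was below 0.05. For Cyp2c54 the values are 3.10, 1.94 and 2.97, and Cyp3a13 and Cyp2c70 lie on the negative side.

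Between genotypes few P450 genes differed. With CDDO-Im 1 member was higher and 2 were lower in Nrf2 null than in wild type livers (background 0.621% and 0.824%). With vehicle 0 were higher and 2 lower (limma, background 0.115% and 0.275%). In the vehicle comparison 2 higher and 11 lower members had an unadjusted p below 0.05, and the share of all genes at that level was not counted. The CDDO-Im and vehicle comparisons have no array in common. The median difference of the members was 0.07 with CDDO-Im, against 0.0062 over all genes. With vehicle it was -0.02, against 0.0163, with 25 members positive and 28 negative. Without wild type vehicle replicate 3 the vehicle median was 0.03, with 31 members positive and 22 negative. Nrf2 null arrays lay wholly above wild type arrays for 10 members and wholly below for 6 with CDDO-Im, against 9.01% and 7.82% of all genes, and for 3 and 9 members with vehicle, against 8.55% and 8.49%. Without wild type vehicle replicate 3 there were 1 higher and 3 lower members with CDDO-Im (background 1.12% and 1.43%), where Cyp2c39 was added (-0.97, adjusted p = 0.0344), and 0 higher and 3 lower with vehicle (background 0.231% and 0.973%), where Cyp2c29 was added (-1.08, adjusted p = 0.0143).

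Cyp2d13 showed the largest of these differences. RefSeq lists it as a transcribed pseudogene. With CDDO-Im it read 7.47, 7.94 and 7.997 in Nrf2 null livers, against 9.91, 9.92 and 10.43 in wild type livers. With vehicle it read 6.93, 7.01 and 7.25 in Nrf2 null livers, against 9.65, 10.22 and 10.64 in wild type livers. The genotypes were far apart under both treatments. The signal was 4.87-fold lower in Nrf2 null livers with CDDO-Im (-2.28 ± 0.23, adjusted p = 0.000305) and 8.63-fold lower with vehicle (-3.11 ± 0.23, adjusted p = 0.000145). A second probe set gave -1.86 (adjusted p = 0.000481) and -2.19 (adjusted p = 0.000538) over all probe sets, and both calls held whichever array was left out. The probe set's suffix marks it as common to alternative transcripts of 1 gene, and how far it responds to other Cyp2d transcripts was not tested.

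Cyp2d22 was lower in Nrf2 null than in wild type livers with vehicle, at 9.05, 9.36 and 9.19 against 10.04, 10.33 and 11.34. The difference was -1.37 ± 0.26 (adjusted p = 0.0455), close to the threshold, and it was held in only 2 of the 12 fits that leave out an array, those without wild type vehicle replicate 1 or 3; without Nrf2 null vehicle replicate 1 the adjusted p was 0.209. Cyp2c38 was lower in Nrf2 null livers with CDDO-Im, at 9.88, 9.78 and 10.02 in Nrf2 null livers against 10.90, 11.35 and 11.23 in wild type livers (-1.27 ± 0.26, adjusted p = 0.0359). It held in 4 of those 12 fits and reached an adjusted p of 0.143 without wild type CDDO-Im replicate 2. Cyp3a13 was higher in Nrf2 null livers with CDDO-Im, at 11.65, 10.88 and 10.93 against 10.13, 10.39 and 10.17 in wild type livers (0.92 ± 0.20, adjusted p = 0.0469). That call held in 1 of the 12 fits, the one without wild type vehicle replicate 3, with an adjusted p of up to 0.152 in the others. For all 3 genes the genotypes did not overlap in the comparison named.

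**Figure D4:**
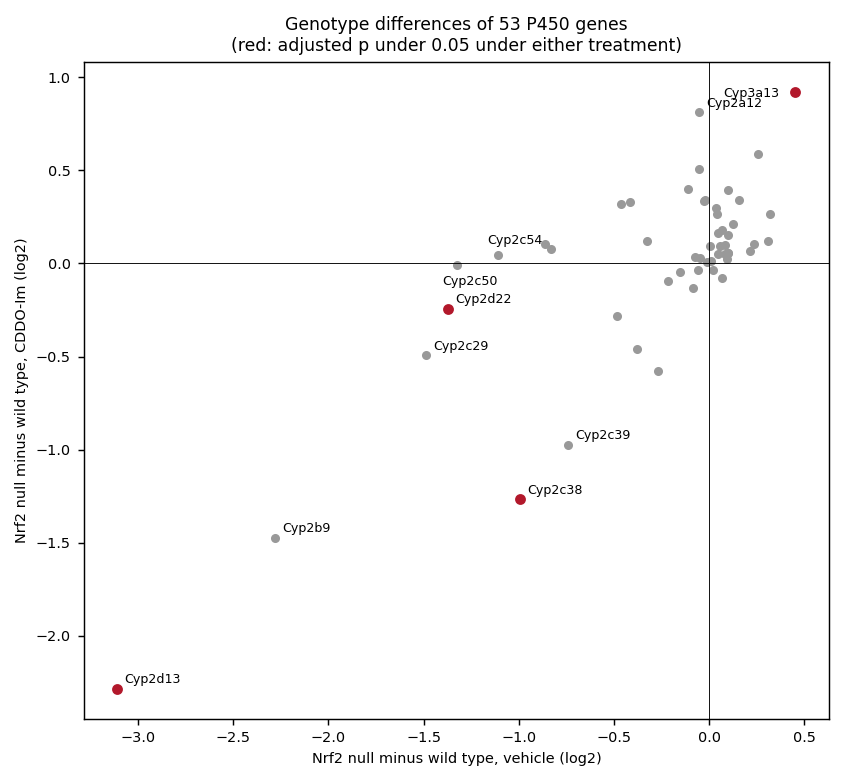
Difference between Nrf2 null and wild type livers (log2) for each of the 53 P450 genes, with CDDO-Im on the vertical and with vehicle on the horizontal axis; red points passed the test under at least 1 treatment. Cyp2d13 lies far from the rest, at -2.28 with CDDO-Im and -3.11 with vehicle.

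The test of the difference between genotypes in the response to CDDO-Im called 0 of 53 members (limma, background 0.137%). At an unadjusted p below 0.05 there were 6 members, Cyp2c23, Cyp2c29, Cyp2d10, Cyp2d13, Cyp2d22 and Cyp4v3, against 7.1% of all genes. The value is the wild type response minus the Nrf2 null response, and all 6 were negative. The smallest adjusted p was 0.377 for Cyp4v3, whose response was 1.12 in Nrf2 null livers and 0.34 in wild type livers (difference -0.78 ± 0.23). Over the members the median was -0.11, against 0.0061 over all genes, and 38 of 53 were negative. Without wild type vehicle replicate 3 the median of the members was -0.018, with 24 positive and 29 negative, so most of this tilt depended on that array. The fit without it also called 0 members (background 0.253%), with a smallest adjusted p of 0.145 for Cyp2c70 (-0.95). The 8 genes called in Nrf2 null but not in wild type livers with all arrays were therefore not shown to respond differently between genotypes. Of the 11 genes that rose in Nrf2 null livers, 9 were also called in wild type livers without that array.

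Of the genes listed as classical CAR and PXR targets, 9 of 11 were measured by a probe set of their own. The others, Cyp2a5 and Cyp2a4, share a probe set that rose in wild type livers and is described further on. In Nrf2 null livers 4 of the 9 rose and 1 fell, against 3.58% and 2.32% of all genes. In wild type livers 2 rose and 1 fell, against 0.978% and 0.846%. When wild type vehicle replicate 3 was left out, 6 were higher and 1 lower in Nrf2 null livers (background 4.95% and 3.93%), and 5 were higher and 1 lower in wild type livers (background 2.77% and 4.84%). The 9 genes are members of the set described here, so the counts add no separate evidence. Cyp2b10, the standard marker of CAR activation, was not called after CDDO-Im, nor was it with the mean of its 3 probe sets. The values given are those of its brightest probe set. It read 7.12, 7.39 and 7.38 in Nrf2 null CDDO-Im livers, against 7.54, 7.37 and 7.08 in Nrf2 null vehicle livers, and 7.41, 7.42 and 7.46 in wild type CDDO-Im livers, against 7.32, 7.29 and 7.64 in wild type vehicle livers. The groups overlapped, with differences of -0.03 ± 0.13 in Nrf2 null livers and 0.02 ± 0.13 in wild type livers (adjusted p = 0.930 and 0.979). Cyp2b13 and Cyp2b19 had differences of 0.0050 to 0.13 after CDDO-Im.

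Of 6 listed PPARα targets 3 were measured, the fatty acid hydroxylase genes Cyp4a12a, Cyp4a14 and Cyp4a31, and 0 were called in any comparison (limma). The background was 0.115% to 3.58% per direction between groups and 0.137% for the difference in response. With so few genes, 0 calls says little about them. Only 1 difference, Cyp4a31 between genotypes with CDDO-Im, had an unadjusted p below 0.05. Cyp4a14 read 9.90, 11.17 and 10.74 in Nrf2 null CDDO-Im livers, against 11.04, 12.43 and 11.15 in Nrf2 null vehicle livers, and 12.41, 11.31 and 9.82 in wild type CDDO-Im livers, against 11.94, 11.99 and 11.50 in wild type vehicle livers. Its wild type CDDO-Im arrays alone covered nearly the whole range of the gene. With all arrays 0 of 3 measured male-biased and 0 of 4 measured female-biased genes were called in each limma comparison, with at most 1 of each at an unadjusted p below 0.05. The background was the same, and these lists are as short. The listed female-biased genes Cyp2a4, Cyp3a41a and Cyp3a41b were read only by shared probe sets, which were called and are described further on. The male-biased Cyp2d9 was called in both genotypes without wild type vehicle replicate 3, as given above. The 5 Cyp2j genes were not called after CDDO-Im with or without that array (limma). With all arrays the background was 3.58% higher and 2.32% lower in Nrf2 null livers, and 0.978% and 0.846% in wild type livers. Without that array it was 4.95% and 3.93%, and 2.77% and 4.84%. With all arrays 2 of the Cyp2j genes had an unadjusted p below 0.05 in Nrf2 null livers after CDDO-Im and 0 in wild type livers. The epoxygenase Cyp2j5, the brightest of them, read 11.72, 11.94 and 12.15 in Nrf2 null CDDO-Im livers, against 11.46, 11.67 and 11.75 in Nrf2 null vehicle livers. It read 11.94, 12.10 and 12.05 in wild type CDDO-Im livers, against 11.87, 11.76 and 11.90 in wild type vehicle livers. The treatments overlapped slightly in Nrf2 null livers and were narrowly separate in wild type livers. Cyp2j5 had differences of 0.31 ± 0.11 in Nrf2 null (adjusted p = 0.137) and 0.18 ± 0.11 in wild type livers (adjusted p = 0.540).

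Cyp2e1, which oxidises ethanol and paracetamol, was among the steadiest members, at 13.67, 13.72 and 13.63 in Nrf2 null CDDO-Im, 13.60, 13.51 and 13.60 in Nrf2 null vehicle, 13.61, 13.67 and 13.69 in wild type CDDO-Im and 13.52, 13.46 and 13.70 in wild type vehicle livers. Its differences after CDDO-Im were 0.10 in both genotypes. Cyp2f2, a lung and liver enzyme that activates naphthalene, differed by 0.38 ± 0.19 in Nrf2 null livers (adjusted p = 0.325) and by 0.45 ± 0.19 in wild type livers (adjusted p = 0.331), and by 0.70 in wild type livers without vehicle replicate 3 (adjusted p = 0.00935). Altogether 40 of the 53 members passed no test with all arrays. None of the 19 members with a mean signal below the median over the genes tested (6.66) was called with all arrays (limma, background 0.115% to 3.58% per direction between groups). Per comparison 0 to 3 of them had an unadjusted p below 0.05, and the differences between groups ran between -0.49 and 0.88.

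Some members varied widely within groups. The mean within-group SD had a median of 0.17 over the members and exceeded 0.5 for 4 of them, Cyp2b9, Cyp4a14, Cyp2a12 and Cyp2c54. Cyp2b9, a female-biased gene, read 5.94, 7.77 and 9.32 in Nrf2 null CDDO-Im livers, 5.53, 5.68 and 7.75 in Nrf2 null vehicle livers, 7.34, 10.44 and 9.67 in wild type CDDO-Im livers and 8.67, 9.54 and 7.59 in wild type vehicle livers. Within single groups it varied by more than most members did between groups, and its largest difference, -2.28 ± 0.95 between Nrf2 null and wild type vehicle livers, did not pass the test (adjusted p = 0.328). Cyp2a12, a steroid hydroxylase, read 11.39, 10.64 and 9.91 in Nrf2 null CDDO-Im livers, 9.50, 9.91 and 11.69 in Nrf2 null vehicle livers, 9.82, 9.98 and 9.70 in wild type CDDO-Im livers and 9.62, 11.45 and 10.20 in wild type vehicle livers. All 4 groups overlapped, and no difference passed the test.

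**Figure D5:**
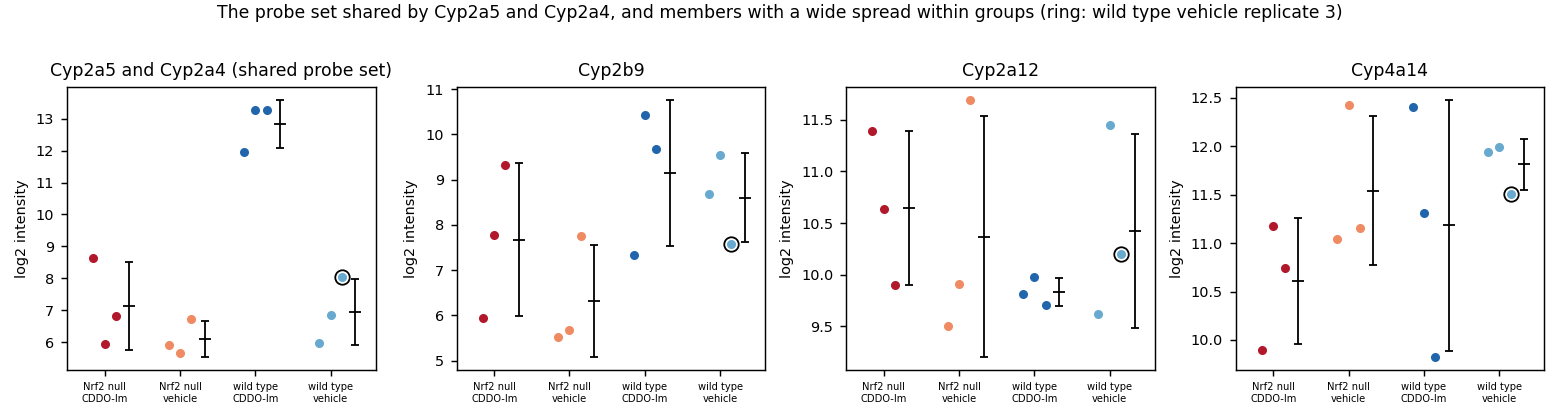
Log2 signal (vertical axis) on each array for the probe set shared by Cyp2a5 and Cyp2a4 and for Cyp2b9, Cyp2a12 and Cyp4a14, by group, with bars for mean ± SD (n = 3). The shared probe set reads 11.96 to 13.28 in wild type CDDO-Im livers and at most 8.65 elsewhere, and the other 3 genes spread widely within groups.

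Cyp2a5 and Cyp2a4 share 1 probe set and are therefore not members, but they are shown because that probe set had a larger difference after CDDO-Im than any member. Cyp2a5 is the mouse coumarin 7-hydroxylase and Cyp2a4 a testosterone 15α-hydroxylase. Their promoters, at chr7:26835189-26835338 and chr7:26307042-26307191 (both plus strand, GRCm38.p6), are identical in 97.6% of aligned columns over 250 bases, and 150 bases of each show how alike they are, capitals marking TTGCNNAA and TATAAA.
Cyp2a5: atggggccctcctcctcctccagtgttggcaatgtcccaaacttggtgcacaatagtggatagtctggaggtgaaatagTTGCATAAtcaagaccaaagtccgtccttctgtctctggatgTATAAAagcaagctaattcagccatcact
Cyp2a4: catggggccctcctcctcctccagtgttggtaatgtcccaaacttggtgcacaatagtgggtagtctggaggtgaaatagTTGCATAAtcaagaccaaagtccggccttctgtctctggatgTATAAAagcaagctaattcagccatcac

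The shared probe set read 8.65, 5.95 and 6.82 in Nrf2 null CDDO-Im livers, against 5.90, 5.67 and 6.73 in Nrf2 null vehicle livers. In wild type livers it read 11.96, 13.26 and 13.28 with CDDO-Im, against 5.98, 6.86 and 8.04 with vehicle. The wild type CDDO-Im arrays stood above every other array. Over all 45037 probe sets other than controls, the wild type difference was 5.87 ± 0.66 (58.5-fold, adjusted p = 0.000814), and the Nrf2 null difference was 1.04 ± 0.66 (adjusted p = 0.508). Nrf2 null livers were lower than wild type livers with CDDO-Im (-5.69, adjusted p = 0.000942) but did not pass the test with vehicle (-0.86, adjusted p = 0.682). The response in wild type minus that in Nrf2 null livers was 4.83 ± 0.93 (adjusted p = 0.132), and 5.37 without wild type vehicle replicate 3 (adjusted p = 0.0397). Which of the 2 genes the signal comes from cannot be told apart. Of the other 3 probe sets that name a pair of these genes, the one for Cyp3a41a and Cyp3a41b rose in Nrf2 null livers (0.72, adjusted p = 0.0397). Its signal was low there, averaging 4.44 with CDDO-Im and 3.72 with vehicle, below the array medians of 5.77 to 5.83. The probe sets for Cyp4a31 with Cyp4a10 and Cyp4f37 with Cyp4f16 were not called.

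Of 12 listed electron transfer and heme synthesis genes 10 were measured. In Nrf2 null livers 3 rose and 0 fell (limma, background 3.58% and 2.32%), with 5 higher and 0 lower at an unadjusted p below 0.05. The 3 encode forms of cytochrome b5 or a cytochrome b5 reductase. Cyb5a rose by 0.34, Cyb5b by 0.72 (adjusted p = 0.0103) and Cyb5r3 by 0.96 (adjusted p = 0.00405). Whether each of them serves the P450 enzymes was not tested. With all arrays 1 gene was called in wild type livers, Cyb5b, which rose by 1.26 (adjusted p = 0.000171; background 0.978%). The counts without wild type vehicle replicate 3 were 4 higher in Nrf2 null livers and 3 higher in wild type livers (background 4.95% and 2.77%). Alas1, which starts heme synthesis, had differences of 0.996 in Nrf2 null (adjusted p = 0.0614) and 1.01 in wild type livers (adjusted p = 0.102). Of 21 listed regulators of P450 genes 20 were measured. In Nrf2 null livers 6 rose and 1 fell (background 3.58% and 2.32%), with 10 at an unadjusted p below 0.05. In wild type livers 0 were called (limma, background 0.978% and 0.846%), with 4 at an unadjusted p below 0.05. The test of the difference in response between genotypes called 0 of the 20 regulators (limma, background 0.137%). At an unadjusted p below 0.05 there were 7 of the 20, against 7.1% of all genes. A different response was not shown for any single regulator. Leaving out wild type vehicle replicate 3, 7 were higher and 1 lower in Nrf2 null livers (background 4.95% and 3.93%), and 1 was higher in wild type livers (background 2.77%). With all arrays those that rose in Nrf2 null livers were Ppara by 1.22 (adjusted p = 0.0106), Dbp by 1.04, Nr1i3 by 0.77 (adjusted p = 0.0264), Cebpa by 0.59, Nr3c1 by 0.58 and Hlf by 0.53, and Cux2, a female-biased repressor, fell by 0.62. Nr1i3 differed in wild type livers by 0.73 (adjusted p = 0.0589) and Nr1i2 in Nrf2 null livers by 0.65 (adjusted p = 0.0591), both short of the threshold. In vehicle livers Ppara was lower in Nrf2 null than in wild type livers (-1.13, adjusted p = 0.0414).

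Markers of hepatocyte zones and of other liver cells were read beside these changes. Over all genes the background of calls after CDDO-Im was 3.58% higher and 2.32% lower in Nrf2 null livers. In wild type livers it was 0.978% and 0.846%. The marker lists are short, so their few calls describe single genes. Of 7 measured pericentral markers 1 rose in Nrf2 null livers (Lect2, 0.48, adjusted p = 0.0365), where 3 were higher at an unadjusted p below 0.05, among them Gulo (0.63, adjusted p = 0.117). In each genotype 5 of the 7 had a positive and 2 a negative difference, down to -0.32 in Nrf2 null livers. In wild type livers 0 were called (limma, and 0 at an unadjusted p below 0.05). Without wild type vehicle replicate 3 the counts were 2 higher in Nrf2 null and 1 higher in wild type livers (background 4.95% and 2.77%). Of 6 measured periportal markers, which include the member Cyp2f2, Cdh1 fell in both genotypes (-0.86 in Nrf2 null and -1.17 in wild type livers). The list as a whole had 4 positive and 2 negative differences in Nrf2 null livers, and 2 and 4 in wild type livers. All 7 general hepatocyte markers were measured, and Fgb, a fibrinogen chain, fell in both genotypes (-0.46 in Nrf2 null and -0.67 in wild type livers). Over the 7, 5 differences were positive and 2 negative in Nrf2 null livers, and 3 and 4 in wild type livers.

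Among markers of other cell types, 2 of 6 measured neutrophil markers fell in Nrf2 null livers (background 2.32%), S100a8 by 1.27 (adjusted p = 0.0110) and S100a9 by 0.95 (adjusted p = 0.0276). In wild type livers 0 were called (limma, background 0.978% higher and 0.846% lower), with 2 lower at an unadjusted p below 0.05. The summed signal of the 6 (log2) was 9.21 to 9.28 in Nrf2 null CDDO-Im and 9.37 to 9.68 in Nrf2 null vehicle livers, and 9.05 to 9.28 in wild type CDDO-Im and 9.25 to 9.35 in wild type vehicle livers. Of 6 measured sinusoidal endothelial markers Oit3 rose in both genotypes (0.63 in Nrf2 null and 0.51 in wild type livers) and Lyve1 rose in wild type livers (2.26, adjusted p = 0.00130). The background of higher calls was 3.58% in Nrf2 null and 0.978% in wild type livers. Their summed signal was 11.36 to 11.54 in Nrf2 null CDDO-Im and 10.94 to 11.66 in Nrf2 null vehicle livers, and 10.77 to 11.15 in wild type CDDO-Im and 10.86 to 11.39 in wild type vehicle livers. Kupffer cell, stellate cell and cholangiocyte markers had 0 calls after CDDO-Im with all arrays (limma, against the same background), which says little for lists this short. At an unadjusted p below 0.05 there were 3, 1 and 1 in Nrf2 null livers and 1, 3 and 0 in wild type livers. The counts without wild type vehicle replicate 3 had in addition 1 neutrophil, 1 sinusoidal endothelial and 1 stellate cell marker lower and 1 periportal marker higher in wild type livers (background 4.84% lower and 2.77% higher). In Nrf2 null livers 1 stellate cell marker was higher (background 4.95%). The part of these markers in the P450 results was not tested.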

How the data were processed

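The deposited log2 signals of 12 single-colour Affymetrix arrays were used as given; the authors made them with RMA, per the submitters' processing notes, with no version stated, and depth has no counterpart here: the number of arrays limits the precision. RMA corrects background on each array and fits quantiles and probes over all arrays together, so array medians are alike and low signals are compressed. Of 45101 probe sets, 64 controls were left out; 34945 name 1 gene, 932 several and 9160 none. Groups came from the sample titles. Each gene was tested at its probe set of highest mean with limma 3.58.1 in R 4.3.3 (lmFit, eBayes, 1 mean per group, all 12 arrays), two-sided, with Benjamini-Hochberg adjustment over 18193 genes; differences are given with standard errors. The members and gene lists were chosen with earlier results of these data known. Every member could be named; full values are given for those called in at least 1 comparison and for the brightest of each subfamily with several members. Comparisons of one genotype or treatment share arrays with others. The share of all genes at an unadjusted p below 0.05 was counted only for the difference between genotypes in the response. The fit was checked on simulated data. Alternatives left out each array, changed probe set choice, filter, weights, prior, normalization and samples, or added a replicate block. Promoters were aligned globally with Biopython 1.88.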

Additional observations from a re-analysis of the deposited data

How the results depend on the processing

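No called difference changed direction under any alternative run. For CDDO-Im in Nrf2 null livers, with 12 member calls, leaving out 1 array gave 2 to 19. For CDDO-Im in wild type livers, with 4 calls, leaving out 1 array gave 1 to 16, leaving out both arrays with acinar markers 17, array weights 13, and fitting the compared arrays only 1. For Nrf2 null against wild type with CDDO-Im, with 3 calls, leaving out 1 array gave 1 to 4. With vehicle, with 2 calls, leaving out 1 array gave 1 to 3, the mean of a gene's probe sets 1, testing every single-gene probe set 1, array weights 8, compared arrays only 1 and quantile normalization 1. The difference between genotypes in the response gave 0 calls under each alternative run; it needs all 4 groups, so compared arrays only was not run. Cyp2c29 and Cyp4v3 in Nrf2 null livers, Cyp3a13 in wild type livers and Cyp2d13 in both genotype comparisons kept their calls under all 12 fits that leave out an array and all 9 other settings. Compared arrays only ended the wild type calls of Cyp2c29 (adjusted p = 0.125), Cyp2c38 (0.103) and Cyp3a25 (0.132) and the Nrf2 null call of Cyp2c23 (0.0545), which leaving out both acinar arrays also ended (0.0807), as well as the genotype differences of Cyp3a13 with CDDO-Im (0.0581) and Cyp2d22 with vehicle (0.187). The cause was not tested. The replicate block gave 15, 5, 3, 3 and 0 calls in the order above and changed no count by over 1.5 times; arrays with the same number had correlations of -0.30 to 0.28 in their deviations from group means, so the numbers were not taken as pairing the samples. A filter on low signal kept 39 members. Groups of 3 arrays and probe sets shared between related genes limit what can be resolved.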
